A study of Mus musculus with 8 samples.

Results

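Expression changes with T-bet were measured across both GATA3 states of stimulated EL4 cells, by setting the 4 libraries with T-bet against the 4 libraries without it. All 8 libraries of the series entered this comparison. EL4 is a T lymphoblast line from a C57BL/6 mouse, and the 4 lines carried retroviral constructs for FLAG-T-bet or the control GFP together with HA-GATA3 or the control fluorescent protein Plum. The libraries with T-bet were 2 of T-bet + Plum and 2 of T-bet + GATA3, and those without were 2 of GFP + Plum and 2 of GFP + GATA3. All lines received the phorbol ester PMA at 50 ng/ml together with the calcium ionophore ionomycin at 1 μM, and polyadenylated RNA was purified 4 hours later. One term for T-bet was fitted to the counts of every gene, with a second term for GATA3. The T-bet term is a joint estimate over both GATA3 states, and a gene could be called without the same change in each. Of 14791 genes that passed the filter on low counts, 681 (4.6%) were called for the T-bet term, which required both an FDR no higher than 0.05 and a change of more than 1.5 on the log2 fold change (FC) scale in either direction. Each line was one culture lineage, and the study defines replicates as harvests of the same line on different days. The p-values therefore measure the spread between harvests of 2 lines with T-bet and 2 lines without it.

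T-bet, encoded by Tbx21, is a T-box transcription factor that directs naive CD4+ T cells towards the TH1 fate. It activates Ifng and genes for chemokines, chemokine receptors and cytotoxic functions, and opposes the TH2 and TH17 programs. GATA3 is the corresponding master regulator of TH2 cells, and both factors can be present in the same cell.

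Tbx21 (chromosome 11, chr11:97098071-97115331, GRCm38) separated the lines as their labels state. Its level in CPM, counts scaled to a common library size, was 129 and 159 CPM in T-bet + Plum and 135 and 160 CPM in T-bet + GATA3, against 3.59 and 1.78 CPM in GFP + Plum and 2.01 and 2.22 CPM in GFP + GATA3 (log2 FC 5.91 ± 0.20, edgeR FDR 6.21e-07). Reads from an introduced coding sequence and from the cell's own gene cannot be told apart in these counts, for Tbx21 or for Gata3. Gata3 was 283 and 326 CPM in GFP + GATA3 and 204 and 165 CPM in T-bet + GATA3, while the lines without HA-GATA3 held 39.8 and 53.3 CPM without T-bet and 25.8 and 34.9 CPM with it. Gata3 had log2 FCs with T-bet of -0.61 without HA-GATA3 and -0.73 with it, and neither passed the FDR alone (edgeR FDR 0.146 and 0.0789). The pooled difference (-0.67 ± 0.13, edgeR FDR 0.00875) passed the FDR but not the fold threshold. Total estimated counts ran from 8038565 to 16003519 a library, so that 3 counts corresponded to 0.187 to 0.373 CPM. The share of counts on ribosomal protein genes was 5.08% ± 0.274 (SD, n = 4) with T-bet and 4.61% ± 0.245 without it (exact permutation test, two-sided, p = 0.0571, where the smallest possible p is 0.0286). T cell markers summed to 1840 to 2240 CPM with T-bet and 1600 to 1730 CPM without it, and B cell markers stayed at 1.05 to 1.69 CPM in every library.

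More genes rose than fell. Of the 681 genes called, 443 (3.0% of the genes tested) rose with T-bet and 238 (1.61%) fell. The genes that rose had a median log2 FC of 2.63 and those that fell a median of -2.25, beside a median of 0.0178 over all genes tested. In 611 of the 681 genes the 4 libraries with T-bet did not overlap the 4 without, 409 of them higher and 202 lower. Such separation was found in 22.7% of all genes tested. The direction was the same in both GATA3 states for 677 of the 681 genes. Another 3 had 0 counts in every library of 1 state, and 1 gene, Vdr, had fitted log2 FCs of opposite sign. Its positive value, without GATA3, rested on 1 count and shows no reversal. Calls for a term fitted over both states favour equal directions, so the agreement is no independent check.

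**Figure D1:**
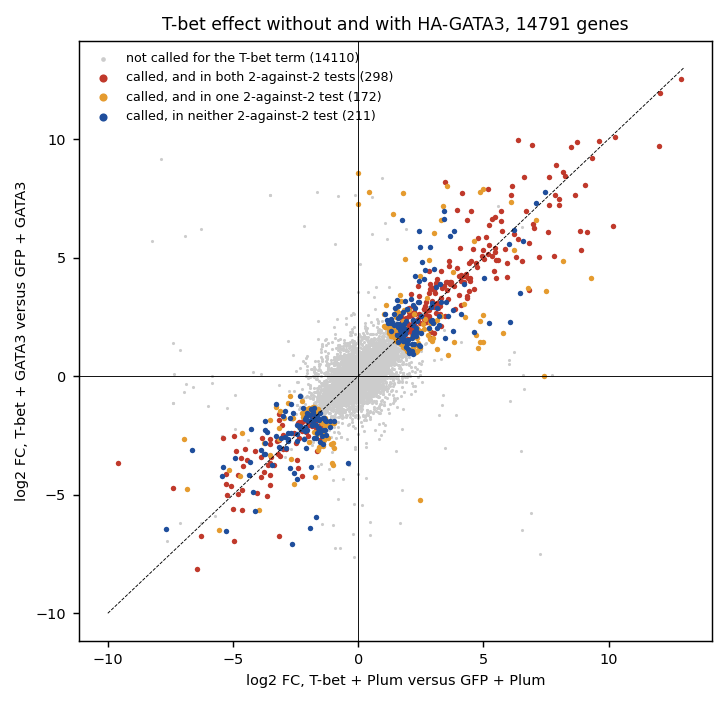
Log2 FC of each of the 14791 genes for T-bet + Plum versus GFP + Plum (x axis) and T-bet + GATA3 versus GFP + GATA3 (y axis), comparisons that share no library. Each point is 1 gene, colours show whether a gene called for the pooled T-bet term was also called in both (298), one (172) or neither (211) of these 2-against-2 tests, and the dashed line marks equal effects. Called genes, which were chosen by the pooled term over both comparisons, lie at upper right and lower left, apart from Vdr at lower right and 3 genes on an axis.

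Ifng, the signature cytokine of TH1 cells, showed the largest rise of any protein-coding gene. It was at 3970 and 2788 CPM in T-bet + Plum and 3476 and 3014 CPM in T-bet + GATA3, against 0.186 and 0.698 CPM in GFP + Plum and 0.574 and 0.507 CPM in GFP + GATA3 (log2 FC 12.72 ± 0.27, edgeR FDR 3.65e-08), at chromosome 10, chr10:118441046-118445892. No library without T-bet held more than 11 counts of Ifng, and the pooled ratio of 6642 had a counting interval of 4595 to 9995 (95%, exact). Next came Pfpl, which encodes a pore-forming protein related to perforin, and Samd3. Pfpl reached 39.7, 39.7, 51.8 and 29.5 CPM in the libraries with T-bet and had 1 count in the 4 without it together, a ratio of 2257 with a counting interval of 404 to 89180 (edgeR FDR 1.3e-06). Where 4 values are given for an arm, here and in what follows, those of the Plum line come first and those of the GATA3 line second. Samd3 reached 50.1, 49.6, 70.7 and 34.8 CPM, against 2 counts without T-bet, a ratio of 1428 (395 to 11800, edgeR FDR 1.72e-06). Both genes were near or at 0 in every library of one arm and well above it in every library of the other.

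Several of the strongest rises were in genes of cytotoxic cells and in genes better known from other tissues. Gzmk, a granzyme, was at 43.8, 65.2, 39.8 and 46.5 CPM with T-bet and 0.0619, 0.127, 0 and 0.254 CPM without it (log2 FC 8.57 ± 0.33, edgeR FDR 1.12e-06). Nkg7, which encodes a granule membrane protein, was at 38.8, 55.7, 20.6 and 11.8 CPM with T-bet and 0, 0.0634, 0.0957 and 0.254 CPM without it (log2 FC 8.13 ± 0.52, edgeR FDR 1.65e-05). Gzme had 0 counts in every library without T-bet and 2.86, 11.7, 14.3 and 4.59 CPM with it, which made it at least 163-fold higher when 3 counts over the arm were taken as the floor. By the same floor the interferon-inducible GTPase Tgtp1 was at least 130-fold higher. Slc6a12, a betaine and GABA transporter, rose from a range of 0.957 to 1.98 CPM to a range of 430 to 590 CPM (log2 FC 8.37 ± 0.18, edgeR FDR 3.65e-08). Gja5, a gap junction connexin, rose from a range of 0.479 to 1.65 CPM to a range of 216 to 436 CPM (log2 FC 8.17 ± 0.33). Slit3, a secreted guidance ligand, was at 0 to 0.127 CPM without T-bet and 33.5 to 49.9 CPM with it (8.87 ± 0.24). Cacna1d, the pore subunit of a voltage-gated calcium channel, was at 13.2 to 22.8 CPM with T-bet and had 3 counts in the arm without it (ratio 366, 125 to 1777). All of these genes were also called in each GATA3 state alone.

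**Figure D2:**
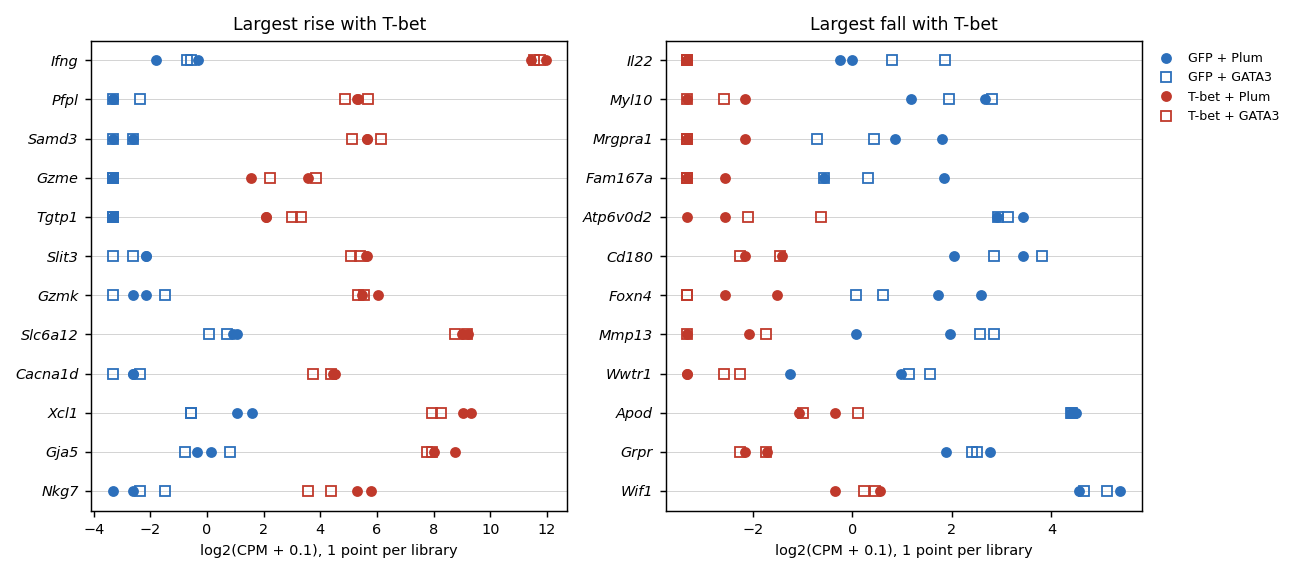
CPM of 12 protein-coding genes that rose most by fitted log2 FC (left) and 12 that fell most (right), plotted as log2(CPM + 0.1) with 1 point per library. Red marks libraries with T-bet, blue those without, circles Plum and open squares GATA3. Only calls whose red and blue points do not overlap were eligible.

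Promoters of genes that rose were searched for the T-box motif, which T-bet binds. The 250 bases before the start of transcription were taken from RefSeq (GRCm38.p6) for the 8399 of 14791 genes that matched, and both strands were searched for the letters AGGTGTGA and for the shorter GGTGTNA, which every AGGTGTGA also contains. AGGTGTGA was in 5 of 272 promoters of genes that rose (1.84%), 0 of 127 of genes that fell and 0.691% of all promoters, and the 5 were Samd3, Nkg7, Selp, Stat5a and Ctrl. GGTGTNA was in 11% of promoters of genes that rose, 7.87% of those of genes that fell and 7.1% of all. The GATA letters AGATAA were in 7.72%, 11% and 5.85% in the same order. The window of Ifng held neither T-box motif. Below are 3 windows from genes among the largest rises that hold one, with the match in capitals. The match in Samd3 begins 15 bases before the start of transcription and reads AGGTGTGA on the opposite strand (chr10:26229457-26229706, plus strand). Those in Gzmk (chr13:113180966-113181215, minus strand) and Xcl1 (chr1:164935523-164935772, minus strand) hold the shorter motif and begin 75 and 188 bases before it.
Samd3: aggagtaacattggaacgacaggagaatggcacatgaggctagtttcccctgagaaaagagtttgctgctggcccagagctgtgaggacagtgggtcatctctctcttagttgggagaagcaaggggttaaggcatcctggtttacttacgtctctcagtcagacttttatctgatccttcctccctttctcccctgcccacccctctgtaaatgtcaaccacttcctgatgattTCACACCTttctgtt
Gzmk: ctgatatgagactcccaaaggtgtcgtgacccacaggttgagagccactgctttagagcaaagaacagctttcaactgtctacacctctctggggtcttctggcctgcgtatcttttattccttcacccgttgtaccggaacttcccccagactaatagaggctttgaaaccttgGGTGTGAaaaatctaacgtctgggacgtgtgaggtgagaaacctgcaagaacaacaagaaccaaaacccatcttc
Xcl1: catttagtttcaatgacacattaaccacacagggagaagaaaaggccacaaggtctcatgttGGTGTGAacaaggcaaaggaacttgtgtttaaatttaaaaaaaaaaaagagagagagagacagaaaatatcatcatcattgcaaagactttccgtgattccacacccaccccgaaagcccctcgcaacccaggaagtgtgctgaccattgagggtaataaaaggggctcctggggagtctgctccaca

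Il22, which encodes a cytokine of the TH17 and TH22 lineages, was among the genes that fell most. It was at 0.743 and 0.888 CPM in GFP + Plum and 1.63 and 3.55 CPM in GFP + GATA3 and had 0 counts in all 4 libraries with T-bet, at least 26.6-fold lower by the floor of 3 counts (edgeR FDR 0.00258). Il17f, another TH17 cytokine, which was singled out after its values were seen, was at 108, 82.7, 45.3 and 32.7 CPM without T-bet and 6.35, 10.1, 1.51 and 1.66 CPM with it (log2 FC -3.92 ± 0.26, edgeR FDR 1.89e-05). In both genes the arms did not overlap.

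Other large falls were in genes of varied function. Wif1, a secreted Wnt inhibitor, was at 23.3, 41.5, 25 and 34.6 CPM without T-bet and 1.37, 0.684, 1.08 and 1.26 CPM with it (log2 FC -4.84 ± 0.28, edgeR FDR 9.61e-06). Apod, a lipocalin that carries small lipids, was at 22.5, 20.9, 20.9 and 21.1 CPM without T-bet and 0.373, 0.684, 0.973 and 0.399 CPM with it (log2 FC -5.13 ± 0.23, edgeR FDR 1.99e-06). Cd180, a receptor related to the Toll-like family, was at 4.0 to 13.9 CPM without T-bet and 0.108 to 0.274 CPM with it. Grpr, the receptor of gastrin-releasing peptide, and Mmp13, a collagenase, had log2 FCs of -4.88 ± 0.35 and -5.27 ± 0.69. Myl10, a myosin light chain, had 2 counts with T-bet against 281 without, a ratio of 113 with a counting interval of 31.1 to 941. Mrgpra1 and Fam167a had 1 count each in the arm with T-bet, so that their ratios of 83.2 and 71.9 had counting intervals of 14.6 to 3316 and 12.6 to 2870.

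Some of the genes that fell belong to a list of myeloid markers. Of its 17 genes 7 were tested and 4 fell, namely Gpnmb (log2 FC -3.06 ± 0.18), Clec4d (-4.63 ± 0.59), Atp6v0d2 (-5.57 ± 0.49) and Lyz2 (-2.56 ± 0.44). The other 3 tested, Cd68 (0.11), Acp5 (-0.58) and Itgam, did not pass the FDR. Members of the list were chosen with earlier results of these data known, so its falls are no independent result. The summed level of the list, scaled to total counts, was 35.9 to 113 CPM with T-bet and 350 to 705 CPM without it. Gpnmb alone, on TMM-scaled library sizes, was at 329 to 664 CPM without T-bet. The defining markers Csf1r, Adgre1 and Cd14 had at most 2 counts in any library, and Elane, S100a8, S100a9 and C1qa had 0. Among genes chosen after their values were seen, Cpa3, a mast cell protease, was at 71.1 to 212 CPM without T-bet and 3.36 to 13.6 CPM with it (-3.84 ± 0.55), and Fcer1g, the signalling chain of Fc receptors, at 21.9 to 39.2 CPM without T-bet and 1.20 to 3.01 CPM with it (-3.67 ± 0.24). Il1rl1, which mast cells and basophils also express, had a log2 FC of 3.64 ± 0.34. The part of such cells in these falls was not tested. Fewer cells of a type and less RNA per cell cannot be told apart in bulk RNA.

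TH1 genes rose as a group. Of the 16 genes of the TH1 list that were tested (Tbx21 left out), 10 rose past both thresholds, 0 fell, and 14 rose by FDR alone, with a median log2 FC of 1.92. Of all genes tested, 3.0% rose and 1.61% fell past both thresholds, and 9.93% rose and 8.0% fell by FDR alone, which is the background for this and the following lists. Setting genes with 0 counts in an arm to their bound changed no median of a list. Stat4, which transmits IL-12 signals, had 1 count in the 4 libraries without T-bet and 2.74, 5.06, 3.46 and 2.99 CPM with it (ratio 214, 38 to 8512). Csf2, the gene of GM-CSF, went from a range of 6.15 to 53.4 CPM to a range of 209 to 510 CPM (3.62 ± 0.51), and Il2 from 74 to 178 CPM to 266 to 494 CPM (1.64 ± 0.22, or 1.41 and no longer called without T-bet + GATA3 replicate 2). Both chains of the IL-18 receptor rose. Il18r1 was at 2.97, 2.16, 0.766 and 0.507 CPM without T-bet and 69.9, 72.6, 19.7 and 51.7 CPM with it (log2 FC 5.14 ± 0.36, edgeR FDR 2.93e-05), and its partner Il18rap had a log2 FC of 2.74 ± 0.33. Tnf (0.77 ± 0.09) and Bhlhe40 (1.26 ± 0.08) passed the FDR alone. Runx3 (-0.19) and Havcr2 (-0.34) did not pass it, and Eomes, Hlx and Twist1 had 0 counts.

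The TH2 list did not move in one direction. Of 14 genes tested, 6 rose and 3 fell. Maf, which activates Il4 in TH2 cells, was at 28.2, 30.7, 32.1 and 39.9 CPM without T-bet and 1.87, 2.05, 1.51 and 2.19 CPM with it (log2 FC -4.07 ± 0.16, edgeR FDR 1.12e-06). Hpgds, the prostaglandin D synthase of TH2 and mast cells, fell from a range of 86.1 to 261 CPM to a range of 4.51 to 31.9 CPM (log2 FC -4.01 ± 0.44, edgeR FDR 0.000352), and the chemokine receptor Ccr4 lay at the fold threshold (-1.50 ± 0.23) and had log2 FCs of -1.48 to -1.35 when any 1 of the 4 libraries with the GATA3 vector was left out. Ccr4 also missed the threshold in the 4-line fit (-1.48), with at least 10 counts in every library (-1.50) and with offsets for transcript length (-1.47). Those that rose included Il1rl1, the IL-33 receptor (3.64 ± 0.34), Ccr8, a chemokine receptor (3.42 ± 0.29), and Il4ra, the shared chain of the IL-4 and IL-13 receptors (1.90 ± 0.13). Ccr8 was at 0.804, 1.52, 1.34 and 2.03 CPM without T-bet and 6.60, 10.4, 26.4 and 24.5 CPM with it. The cytokine genes Il4 (2.86 ± 0.83, edgeR FDR 0.043) and Il5 (3.32 ± 0.99, edgeR FDR 0.0474) passed the thresholds, but their arms overlapped. Il4 was at 0, 0, 0 and 0.761 CPM without T-bet and 0.373, 0.821, 2.70 and 1.53 CPM with it, and Il5 at 1.61, 0, 4.02 and 16.8 CPM without T-bet and 27.5, 33.3, 97.2 and 5.59 CPM with it. Il4 missed the FDR when any 1 library except GFP + GATA3 replicate 2 was left out (edgeR FDR 0.0516 to 0.125), and Il5 when any 1 except GFP + GATA3 replicate 2 and T-bet + GATA3 replicate 2 was (0.0864 to 0.271). Neither passed without the GATA3 term, and Il5 did not with the replicate block (0.0575). Il13 had at most 6 counts in any library and was not tested.

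Most chemokine ligand genes rose. Of 9 ligands tested, 7 rose and 0 fell, and their median log2 FC was 3.59. Xcl1, which attracts cross-presenting dendritic cells, was at 2.91, 1.97, 0.574 and 0.571 CPM without T-bet and 645, 524, 309 and 247 CPM with it (log2 FC 8.20 ± 0.23, edgeR FDR 1.37e-07). The inflammatory chemokines Ccl3 and Ccl4 reached the highest levels. Ccl3 was at 74.9, 115, 33 and 21.9 CPM without T-bet and 5418, 4648, 3906 and 2994 CPM with it (log2 FC 6.33 ± 0.34, edgeR FDR 6.03e-06), and Ccl4 at 25.5, 59.7, 13.6 and 9.57 CPM without T-bet and 3031, 2883, 2434 and 2128 CPM with it (log2 FC 6.83 ± 0.42, edgeR FDR 1.38e-05). Ccl1, the ligand of CCR8, was already expressed without T-bet at 158 to 473 CPM and rose to 1284 to 2666 CPM (2.92 ± 0.17). Ccl9 (5.12 ± 0.45), Cxcl9 (3.59 ± 0.69) and Ccl5 (1.83 ± 0.37) also rose, while Ccl22 (1.72) and Cxcl10 (0.96) did not pass the FDR. Without T-bet + Plum replicate 1 the log2 FC of Ccl5 was 1.46, under the fold threshold. Among 13 chemokine and homing receptors, 6 rose and 1 fell. Cxcr3, the receptor of Cxcl9 and Cxcl10, was at 15.1 to 44 CPM without T-bet and 122 to 190 CPM with it (2.17 ± 0.31). Ccr2 and Cxcr6 rose by log2 FCs of 3.56 ± 0.53 and 1.96 ± 0.31, and the oxysterol receptor Gpr183, with 3 counts without T-bet, by a ratio of 54.9 (18.4 to 270). The receptors that guide cells to lymphoid organs and to the thymus or gut went the other way. Ccr7 (-1.32 ± 0.22), Cxcr4 (-1.38 ± 0.27), Ccr9 (-1.23 ± 0.19) and Cxcr5 (-0.65 ± 0.16) fell by FDR without reaching the fold threshold.

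The cytotoxic list rose without the classical killing genes of effector T cells. Of 16 genes tested, 9 rose and 0 fell, and the list had a median log2 FC of 2.54. Besides Gzme, Gzmk and Nkg7 these were Ctsw, a lymphocyte cathepsin (0.433, 0.254, 0.191 and 0.254 CPM without T-bet and 62.5, 104, 45.7 and 50.3 CPM with it, log2 FC 7.80 ± 0.25, edgeR FDR 4.93e-07), Gzmd, which had 0 counts without T-bet and was at least 36.7-fold higher, Gzmm, Gzma, and the death ligands Fasl (3.30 ± 0.18) and Tnfsf10 (3.02 ± 0.38). Gzma was at 31.8 to 80.8 CPM without T-bet and 138 to 352 CPM with it (2.06 ± 0.12). Gzmm missed the FDR without T-bet + Plum replicate 2 (edgeR FDR 0.0679). Prf1 and Gzmb, which encode perforin and granzyme B, had at most 7 and 5 counts in any library and were not tested. Lamp1 (-0.71 ± 0.09) and Cst7 (-1.16 ± 0.26) fell by FDR alone.

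Receptors typical of NK cells rose in 10 of 14 genes tested, with 0 falls and a median log2 FC of 3.51. Klrc1, the gene of the inhibitory receptor NKG2A, was at 0.433, 0.317, 1.15 and 1.08 CPM without T-bet and 52.9, 94.3, 74.7 and 75.5 CPM with it (log2 FC 6.70 ± 0.32, edgeR FDR 2.83e-06). Klrd1, which encodes its partner chain CD94, was at 0.186 to 0.634 CPM without T-bet and 11.9 to 34.1 CPM with it (6.05 ± 0.43), and Klre1 at 0.127 to 0.287 CPM without T-bet and 4.98 to 12.4 CPM with it (5.38 ± 0.38). Cd160 (4.24 ± 0.22), the adhesion receptors Crtam (3.81 ± 0.42) and Cd226 (3.62 ± 0.67) and Slamf7 (3.38 ± 0.20) rose as well. Klrg1 (1.89 ± 0.32) was called, but its arms overlapped. Of 8 markers of NK cells, Klrd1 was the one that passed the filter on low counts, and Ncr1, Klra8, Eomes, Fcgr3 and Tyrobp had 0 counts in every library.

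Genes induced by interferon gamma rose broadly. Of 25 tested, 15 rose past both thresholds, 22 rose by FDR alone and 0 fell, and the median log2 FC was 2.34. They comprised immunity-related GTPases, among them Ifi47 (0, 0.0634, 0 and 0 CPM without T-bet and 3.98, 6.02, 7.46 and 9.11 CPM with it, ratio 404, 72 to 16000) and Igtp (0.928, 0.698, 2.30 and 1.40 CPM without T-bet and 14.3, 20.7, 19.4 and 24.8 CPM with it, log2 FC 3.98 ± 0.26, edgeR FDR 1.71e-05), and 6 guanylate-binding proteins with log2 FCs from 2.34 for Gbp9 to 5.29 for Gbp2. The transcription factor genes Irf8 (2.42 ± 0.40) and Irf1 (1.33 ± 0.16) were also higher, Irf8 past both thresholds. The levels of individual Gbp, Tgtp, Ifi200, granzyme, Klr and H2 genes are uncertain, because reads can be divided between near-identical copies. The receptor chains differed. Ifngr2, the signalling chain of the interferon gamma receptor, was at 6.75, 4.38, 6.99 and 14 CPM without T-bet and 0.124, 0.137, 0.973 and 0.333 CPM with it (log2 FC -4.48 ± 0.44, edgeR FDR 0.000181), while Ifngr1, the ligand-binding chain, had a log2 FC of -0.05 ± 0.11 (edgeR FDR 0.794).

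Genes listed for the response to type I interferon and for antigen presentation by MHC class I rose less. Of 19 type I interferon genes tested, 5 rose past both thresholds and 10 by FDR alone, and the median was 1.25. Zbp1, a sensor of Z-form nucleic acids, had the largest rise (2.52 ± 0.31), and Irf7 (1.81 ± 0.44), Isg15 (1.71 ± 0.25), Oasl2 (1.70 ± 0.31) and Parp14 (1.67 ± 0.14) followed. Parp14 missed the fold threshold with offsets for transcript length (1.46). Irf7 was called only without GFP + Plum replicate 2, GFP + GATA3 replicate 2 or T-bet + GATA3 replicate 2 when 1 library was left out, and otherwise had log2 FCs of 1.49 to 1.80 with edgeR FDRs of 0.0391 to 0.0658. Rsad2 (0.73), Mx1 (0.13) and Ifit2 (-0.33), which are strongly induced by type I interferon, did not pass the FDR. Of 18 MHC class I genes, 15 rose by FDR alone, with a median of 0.885, and 2 passed the fold threshold, Psmb10 (1.59 ± 0.20) and H2-T22 (1.51 ± 0.08). H2-T22 fell just under it when GFP + Plum replicate 2 was left out (1.47), likewise T-bet + GATA3 replicate 1 and T-bet + Plum replicate 2 (both 1.49), and it missed the threshold with library-size scaling (1.45), and narrowly with DESeq2 and with no filter on low counts. Psmb10 fell under it when GFP + GATA3 replicate 1 (1.48) or T-bet + GATA3 replicate 2 (1.40) was left out. B2m (0.25) and H2-D1 (0.34) were above the control in all 4 libraries but did not pass the FDR.

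**Figure D3:**
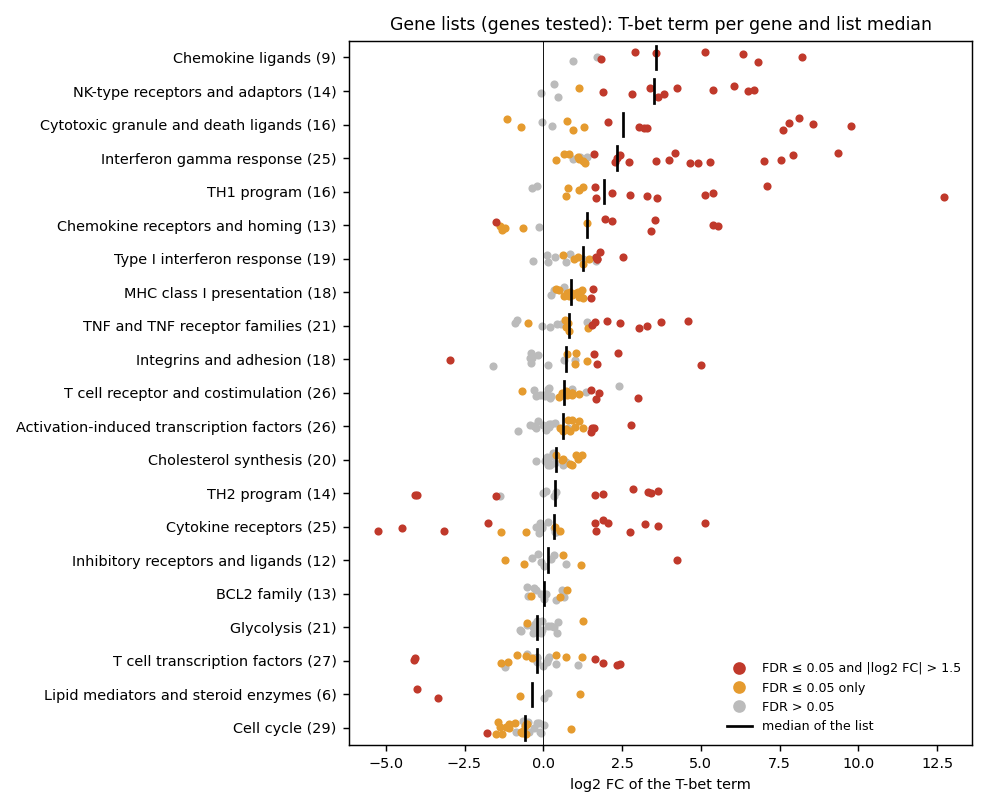
Log2 FC of the T-bet term (x axis) for each tested gene of 21 lists, ordered by list median, with the number of genes tested in parentheses. Each point is 1 gene, coloured by whether it passed the FDR and fold thresholds, the black bar is the list median, and the medians run from 3.59 for chemokine ligands to -0.593 for cell cycle genes.

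Transcription factors of T cells moved in both directions. Of 27 tested, 4 rose and 2 fell past both thresholds, against 3.0% and 1.61% of all genes tested, and the median was -0.194. Besides Irf8, those that rose were Prdm1, which encodes Blimp-1 (2.34 ± 0.60), Zbtb32 (1.91 ± 0.28) and Gfi1 (1.64 ± 0.23). Prdm1 missed the FDR when any 1 library except GFP + Plum replicate 2 was left out (edgeR FDR 0.0509 to 0.105). Gfi1 fell under the fold threshold without GFP + Plum replicate 2 (1.46) or T-bet + GATA3 replicate 1 (1.49). Maf was among those that fell. Id2 (-1.36 ± 0.20), Lef1 (-1.13 ± 0.13) and Id3 (-0.85 ± 0.13) passed the FDR alone, and Tcf7 (0.14) and Tox (0.10) did not. Of 26 factors induced by activation, 4 rose past both thresholds and 13 by FDR, with a median of 0.63. The 4 were Nr4a3, Nr4a1, Rel and Jun, and all but Nr4a3 lost their calls in some alternatives. Rel fell under the fold threshold without any of 5 single libraries (1.39 to 1.49) and with library-size scaling (1.45), and narrowly with DESeq2. Nr4a1 lost its call without any of 4 single libraries (lowest log2 FC 1.22). Jun fell just under the threshold without GFP + GATA3 replicate 1 or T-bet + GATA3 replicate 1. Nr4a3, an orphan nuclear receptor induced by antigen receptor signals, was the largest (84, 99.3, 38.7 and 44.9 CPM without T-bet and 375, 410, 408 and 528 CPM with it, log2 FC 2.78 ± 0.27, edgeR FDR 0.000185).

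Cytokine receptor genes split into rises and falls. Of 25 tested, 8 rose and 4 fell. In addition to the IL-18 receptor chains and Il1rl1, the rises included Il21r (3.23 ± 0.35), Il15ra (2.05 ± 0.35) and Il2rb (1.63 ± 0.27). Il2rb fell under the fold threshold without GFP + Plum replicate 2 (1.40) or T-bet + Plum replicate 2 (1.36), likewise with offsets for transcript length (1.44). Il7r, whose product maintains naive and memory T cells, was at 12.2, 11, 19.1 and 15.7 CPM without T-bet and 1.37, 0.752, 4.11 and 0.931 CPM with it (log2 FC -3.15 ± 0.39, edgeR FDR 0.000734). Il6ra had a log2 FC of -1.76 ± 0.21. Il1r1 was called (-5.26 ± 0.80), but it was at 1.42, 0.190, 5.55 and 7.36 CPM without T-bet, highest in GFP + GATA3, against 0, 0.0684, 0 and 0.200 CPM with it, and the arms overlapped. The subunits Il2rg (0.15), Il2ra (0.36), Ifnar1 (-0.10) and Il10rb (-0.03) did not pass the FDR.

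Surface and signalling molecules of T cells rose in part. Of 21 genes of the TNF and TNF receptor families, 8 rose and 0 fell past both thresholds. Tnfrsf18, which encodes the costimulatory receptor GITR, was at 4.27, 1.40, 1.82 and 2.47 CPM without T-bet and 74.3, 47.5, 71.9 and 49.3 CPM with it (log2 FC 4.58 ± 0.32, edgeR FDR 2.76e-05), and its chromosomal neighbour Tnfrsf4, which encodes OX40, at 5.51, 3.55, 3.64 and 2.79 CPM without T-bet and 62.6, 41, 69.6 and 31.5 CPM with it (log2 FC 3.73 ± 0.30, edgeR FDR 6.94e-05). Of 26 genes of the T cell receptor and costimulation, 4 rose and 0 fell. Cd2, an adhesion receptor (3.02 ± 0.24), and Dgkz, a diacylglycerol kinase that dampens receptor signals (1.75 ± 0.11), were among them, while Cd3e (0.16) and Cd28 (0.17) did not pass the FDR. Lck (1.52 ± 0.28) and Cd6 (1.68 ± 0.39) were also called, but the arms of Cd6 overlapped. Lck lost its call without any of 4 single libraries (1.30 to 1.46), and Cd6 without any of 3 (1.28 to 1.64). Lck also missed the fold threshold with library-size scaling (1.47) and with offsets for transcript length (1.45). Among 18 integrins and adhesion molecules 4 rose and 1 fell. Itga2 (5.0 ± 0.28) and Itgal, the LFA-1 alpha chain (1.69 ± 0.12), were higher, and Itgb7, the beta chain of gut-homing integrins, was at 27.6, 49.7, 21.9 and 32.3 CPM without T-bet and 3.73, 6.50, 2.16 and 4.12 CPM with it (log2 FC -2.96 ± 0.28, edgeR FDR 0.000164). Of 12 inhibitory receptors and ligands, Cd160 alone was called, and Pdcd1 (-0.18), Lag3 (-0.06) and Tigit (0.32) did not pass the FDR.

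Of 29 cell cycle genes tested, 16 fell and 1 rose by FDR alone, against 8.0% and 9.93% of all genes tested, and the median was -0.593. Plk1, a mitotic kinase and the one that also passed the fold threshold, was at 35.3, 60.2, 46.6 and 47.2 CPM without T-bet and 13.6, 9.71, 7.25 and 24.3 CPM with it (log2 FC -1.79 ± 0.33, edgeR FDR 0.00627). Top2a (-1.49 ± 0.26), Mki67 (-1.43 ± 0.20), Ccnb1 (-1.37 ± 0.25) and Ccna2 (-1.30 ± 0.26) passed the FDR alone, as did Cdk6 (-0.69 ± 0.10) and Cdk2 (-0.70 ± 0.19), while Ccne1 (-0.29), Ccnd1 (0.02) and E2f1 (-0.12) did not. Ccnd2 was the one that rose (0.86 ± 0.11). Under scaling by library size 17 of the list fell and 1 rose. Glycolysis genes (21 tested) and BCL2 family genes (13 tested) held 0 calls past both thresholds, and in edgeR 2 and 3 of them passed the FDR alone, with medians of -0.186 and 0.0255. Of 20 genes of cholesterol synthesis, 8 rose by FDR alone and 0 fell, with a median of 0.389. Fdft1 (1.10 ± 0.13) and Insig1 (1.03 ± 0.14) were among the largest. Of 6 genes of lipid mediators that were tested, Hpgds and Ptgs2 fell past both thresholds. Ptgs2, the inducible cyclooxygenase, was at 1.79, 0.190, 1.82 and 2.03 CPM without T-bet and 0.124, 0.205, 0.216 and 0 CPM with it, its arms overlapped, and it lost its call without any of 6 single libraries (GFP + Plum replicate 1, T-bet + Plum replicate 1 and all 4 of the GATA3 lines, edgeR FDR 0.056 to 0.0711) and with offsets for transcript length (log2 FC -1.98, edgeR FDR 0.271).

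Pooling the GATA3 states called genes that neither state called alone. At the same thresholds the test of T-bet + Plum versus GFP + Plum called 446 genes (3.02%) and that of T-bet + GATA3 versus GFP + GATA3 called 421 (2.85%). Of the 681 genes of the T-bet term, 298 were called in both, 96 in the first alone, 76 in the second alone and 211 in neither. These 211 genes, 114 of which rose and 97 fell, changed in the same direction in both states, and in 167 of them both log2 FCs were above 1.5 in size. All 211 missed the FDR threshold in both 2-against-2 tests, although 139 had an unadjusted p under 0.05 in each. In 163 of the 211 the 4 libraries with T-bet did not overlap the 4 without. Their higher arm had a median level of 1.36 CPM, against 10 CPM in the 470 genes called in at least 1 test, and their median standard error was 0.523 against 0.332. The pooled test used the same libraries as the other tests and is no independent check of them. Choosing genes by it also favours equal directions in both states and arms that do not overlap.

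The pooled calls included receptors, kinases and interferon genes at low levels. Among those that rose, Doc2g, which encodes a protein of the double C2 domain family, was at 1.30, 1.21, 1.91 and 1.65 CPM without T-bet and 5.48, 7.38, 3.57 and 13.9 CPM with it (log2 FC 2.34 ± 0.39, edgeR FDR 0.00348). Tgfbr3, the TGF-beta co-receptor betaglycan, was at 0, 0.0634, 0 and 0.0634 CPM without T-bet and 0.871, 0.684, 0.324 and 0.998 CPM with it (ratio 21.7, counting interval 5.57 to 186, edgeR FDR 0.00518). Pdk2, a kinase that restrains pyruvate dehydrogenase, was at 0.124, 0.0634, 0.0957 and 0 CPM without T-bet and 0.871, 0.889, 0.865 and 0.466 CPM with it (log2 FC 3.33 ± 0.59, edgeR FDR 0.00501). Ramp3, an accessory protein of G protein-coupled receptors (2.53 ± 0.46), Aph1c, a gamma-secretase subunit (1.83 ± 0.33), and the interferon-induced genes Oasl2 (1.70 ± 0.31) and Ifi207 (ratio 19.4, 6.25 to 97.5) behaved in the same way. All of these were chosen among calls whose arms did not overlap, so their separation follows from the choice.

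Among the pooled calls that fell, Rasl11a, a small GTPase gene, was at 4.76, 7.80, 5.17 and 6.85 CPM without T-bet and 1.12, 2.73, 1.62 and 2.0 CPM with it (log2 FC -1.67 ± 0.29, edgeR FDR 0.00421). Enah, an actin regulator of the Ena/VASP family, was at 14.5, 7.42, 12.2 and 7.10 CPM without T-bet and 4.85, 3.49, 2.38 and 3.19 CPM with it (log2 FC -1.58 ± 0.28, edgeR FDR 0.00507), and Hlf, a transcription factor of the PAR bZIP family, at 4.76, 2.16, 4.88 and 6.53 CPM without T-bet and 0.996, 1.30, 1.95 and 1.33 CPM with it (log2 FC -1.70 ± 0.30, edgeR FDR 0.00511). Arhgap19, a GTPase-activating protein (-1.65 ± 0.29), fell too, and Rasgrf2, an activator of Ras GTPases, had 1 count with T-bet against 0.557, 0.254, 1.15 and 0.698 CPM without it. Lyz2 stood at 0.574 to 0.761 CPM without T-bet and 0.0665 to 0.137 CPM with it, at most 12 counts in a library. Some of these calls were lost when a single library was left out. Rasl11a was at -1.50 without T-bet + Plum replicate 1, Hlf at -1.48 without GFP + Plum replicate 1, Enah at -1.39 without GFP + Plum replicate 1 and -1.38 without GFP + GATA3 replicate 1, and Arhgap19 at -1.44 without GFP + Plum replicate 2 and -1.48 without T-bet + GATA3 replicate 1. With offsets for transcript length Hlf (-1.08) and Tgfbr3 (2.92) also missed the FDR.

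**Figure D4:**
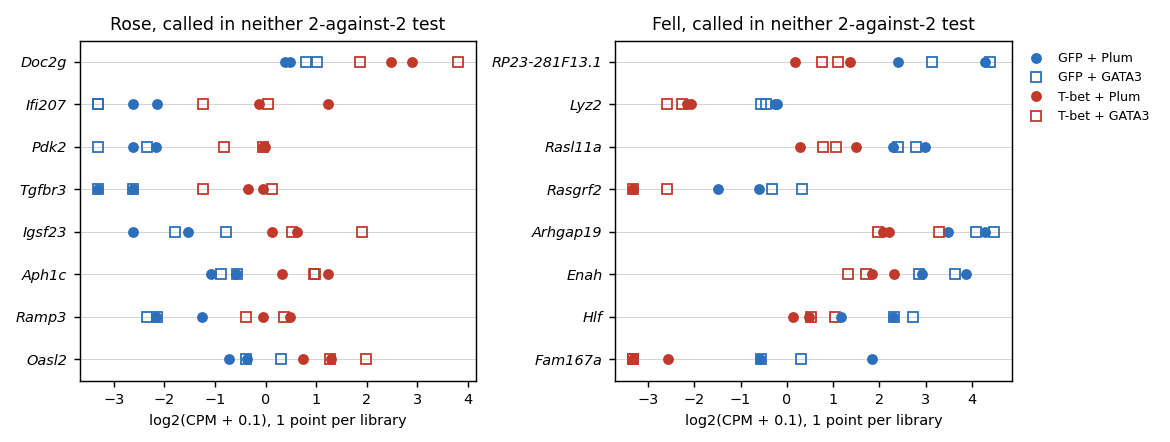
CPM of 16 protein-coding genes called for the pooled T-bet term and in neither 2-against-2 test, 8 that rose (left) and 8 that fell (right), plotted as log2(CPM + 0.1) with 1 point per library. Red marks libraries with T-bet, blue those without, circles Plum and open squares GATA3. The genes were chosen among calls whose red and blue points do not overlap.

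Pooling also resolved many small differences. By FDR alone, 2653 genes (17.9%) differed with T-bet, 1469 higher and 1184 lower. Of these, 1538 passed the FDR in neither 2-against-2 test, with a median log2 FC of 0.58 in size at a median of 36.2 CPM. All 1538 had the same sign in both states. Selection by a pooled term over the same libraries favours equal signs, so this agreement is no independent check. The split by direction depended on the scaling, since library-size scaling gave 1191 higher and 1523 lower (43.9% higher, against 55.4%). In the same way the 3356 genes whose arms did not overlap were 1849 higher (12.5% of genes tested) and 1507 lower (10.2%) with TMM scaling, and 1467 higher and 2049 lower with library-size scaling. The median of all genes moved from 0.0178 to -0.0437 between these scalings. Without GFP + GATA3 replicate 2 the FDR alone called 1662 genes.

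A smaller group was called in a 2-against-2 test and not for the pooled term. It held 99 of the 569 genes called in either test. For 73 of them the pooled FDR passed and the pooled fold lay under the threshold, and for the other 26 the FDR did not pass. The signs were opposite in the 2 states for 11 genes. The T-bet by GATA3 interaction, which tests the difference between the states directly, called 0 genes at an FDR of 0.05 in edgeR, with 381 genes (2.58%) at an unadjusted p under 0.05, and 15 genes in DESeq2. Among the 681 genes of the T-bet term, 59 (8.66%) had an unadjusted interaction p under 0.05. Vdr, the vitamin D receptor and the gene with opposite signs, had log2 FCs of 2.48 and -5.24 without and with GATA3. Vdr was at 0, 0, 1.72 and 4.95 CPM without T-bet and 0, 0.0684, 0 and 0.133 CPM with it, so that its call came from the 2 libraries of GFP + GATA3. The positive value without GATA3 rested on the 0.0684 CPM of T-bet + Plum replicate 2, which is 1 count, and gives no direction for that state. It missed the FDR without GFP + GATA3 replicate 2 or either T-bet + GATA3 library (edgeR FDR 0.0909 to 0.149), and its log2 FC was -1.38 as an average over the 4-line fit. The GATA3 term itself called 4 genes by FDR, of which Ly6a and Gzma also belonged to the T-bet calls.

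Genes called for the T-bet term in many cases lay beside each other on the chromosomes. Of the 443 genes that rose, 21.7% were followed by another that rose, where 3.0% of all genes tested rose. Of 237 genes that fell and had a next gene, 7.59% were followed by another that fell, where 1.61% of all genes fell. There were 18 runs of 3 or more neighbours called in the same direction, 17 of rises and 1 of falls, which together held 65 genes. The longest had 7 genes each. One was the cluster of NK receptor genes on chromosome 6 from Olr1 to Klra13-ps, in which Klrc1 and Klrc2 rose most. Its end genes lost their calls when single libraries were left out, Olr1 without GFP + GATA3 replicate 1, GFP + GATA3 replicate 2 or T-bet + GATA3 replicate 1 (log2 FC 1.37 to 1.44) and Klra13-ps without GFP + Plum replicate 1 or T-bet + Plum replicate 2 (edgeR FDR 0.0531 and 0.0606). The other was the Ifi200 cluster of interferon-inducible DNA sensors on chromosome 1, in which Mnda was at 1.52 to 4.44 CPM without T-bet and 68.6 to 144 CPM with it (5.42 ± 0.30) and Ifi204 at 6.21 to 9.77 CPM without T-bet and 69 to 178 CPM with it (4.07 ± 0.24).

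Further runs joined genes described above. Il1rl1, Il18r1 and Il18rap, which encode cytokine receptors of the IL-1 family, adjoined on chromosome 1. Heatr9, Ccl5, Ccl9, Ccl3 and Ccl4 formed a run on chromosome 11. On chromosome 17 the MHC class II genes H2-Ab1 (ratio 38.4, 6.40 to 1565), H2-Aa (2.28 ± 0.45) and H2-Eb1 (2.46 ± 0.51) all rose, at low levels of 1.23 to 5.41 CPM with T-bet for H2-Eb1, while Ciita, the class II transactivator, had at most 2 counts. The run that fell was Adora3, Tmigd3 and AC121847.1 on chromosome 3, where the arms of Adora3 overlapped and its call was lost without the GATA3 term (edgeR FDR 0.0541). Overlapping transcripts can share reads, and the strand setting of the counting was not given in the sources used here, which bears on neighbours and on the 17 antisense genes among the calls.

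**Figure D5:**
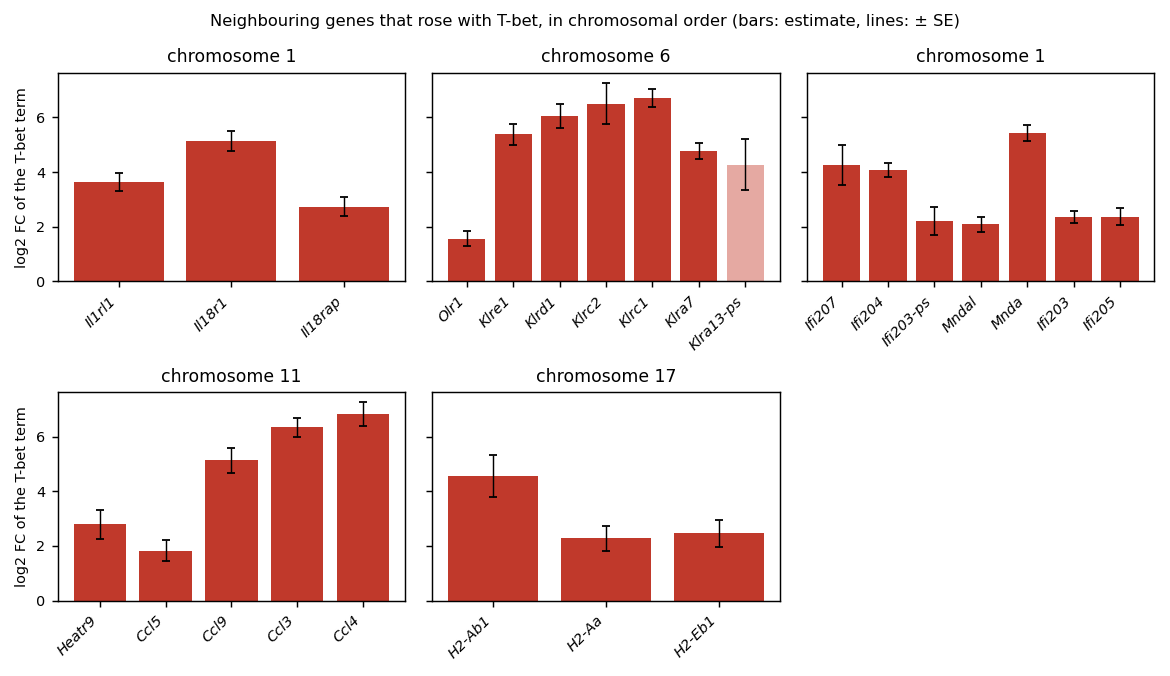
Log2 FC of the T-bet term for 5 runs of neighbouring tested genes that rose, each panel 1 run in chromosomal order. Bars are estimates and lines ± SE from the fit to 8 libraries, the pale bar marks a gene whose arms overlapped (Klra13-ps), and values lie between 1.56 for Olr1 and 6.83 for Ccl4.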

How the data were processed

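Gene expression in 4 EL4 lines was measured by RNA-seq, with 2 libraries a line. Per the study's methods, paired-end reads of 100 bp were quality-filtered (FastQC), freed of adapters (Trim Galore!) and assigned to Gencode transcripts by kallisto. The authors deposited estimated counts, TPM and transcript lengths for 136535 transcripts in each library. The deposited estimated counts are not normalized, the deposited TPM sum to a fixed total in each library and were not tested, and the deposited effective lengths, of unit other, served as offsets in one alternative. The methods name Gencode M20 and the names of the deposited tables M18, and positions were taken from Gencode M21 on GRCm38, which held 54079 of 54146 genes.

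Counts were summed per gene, rounded, scaled by TMM and fitted in edgeR 4.0.16 (R 4.3.3) with the quasi-likelihood test on terms for GATA3 and T-bet. The additive fit left 5 residual degrees of freedom before moderation, filterByExpr kept 14791 genes, and FDRs are Benjamini-Hochberg adjusted over them. The thresholds of the study, FDR ≤ 0.05 and |log2 FC| > 1.5, defined a call. The 2-against-2 tests and the interaction came from one fit with a mean for each line. Standard errors are approximate and were derived from the log2 FC and its F statistic (|log2 FC|/√F). CPM use TMM-scaled library sizes, except the summed marker levels and the CPM given for 3 counts in a library, which use total counts. Arms were called non-overlapping on log2 CPM with a prior count of 2. Intervals of ratios are exact binomial and cover counting error only. A fold against an arm with 0 counts took 3 counts over that arm as its floor.

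Named genes were Tbx21, Gata3, and the protein-coding genes that rose most (12) and fell most (12) among calls whose arms did not overlap. From the same non-overlapping protein-coding calls came the 8 that rose and the 8 that fell with the lowest p among those called in neither 2-against-2 test. Up to 4 called genes of each of 26 gene lists were added, together with members needed to describe a list. The comparison, the genes and the lists were chosen with earlier results of these data known. Some genes named by this rule are given only within counts and plots, and results for some others are not reported here. The alternatives tried were DESeq2 1.42.0, library-size scaling, 2 other filters, a replicate block, no GATA3 term, an average over the 4 lines, length offsets, 2-against-2 fits alone, a lower fold threshold and each library left out. Replicate numbers were checked for pairing, and libraries of 1 line differed beyond sampling noise (chi-square per degree of freedom 9.95 to 30.4). Python 3.11.15 was used for the other steps.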

Additional observations from a re-analysis of the deposited data

Results flagged for a closer look

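In groups of 4 libraries, a library was taken to stand apart when its gap to the nearest other, divided by the range of the group, passed Dixon's critical value at the 95% level, which chance alone passes in about 1 of 20 groups. Of 149 groups of named genes, 8 passed it. Among libraries without T-bet these were Il1rl1 (0.945), Ptgs2 (0.941), Itga4 (0.884), Il4ra (0.859) and Apod (0.845). Among libraries with T-bet they were Pdk2 (0.956), Parp14 (0.853) and Gpr183 (0.848). In Pdk2 the lowest library was T-bet + GATA3 replicate 2, and in Ptgs2 it was GFP + Plum replicate 2.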

How the results depend on the processing

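The number of genes called for the T-bet term was 681 and ran from 594 to 710 when each library was left out. It was 685 with library-size scaling, 661 without the GATA3 term, 652 with length offsets, 690 with DESeq2 and 955 without a filter. With at least 10 counts in every library, which removes genes absent from one arm, 254 genes were called, the lists held 51 calls in place of 103, and 27 genes were called in neither 2-against-2 test in place of 211. A log2 FC above 1 in size gave 1115 calls. By FDR alone the count was 2653 and ran from 1662 to 2487 when each library was left out. The interaction called 0 genes in edgeR and 15 with DESeq2. Calls in neither 2-against-2 test were 198 when those tests were fitted alone and 217 to 271 when each library was left out. Calls within the lists were 94 to 101 when each library was left out.

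With the replicate number as a block, 719 genes were called for the T-bet term, 676 of them shared with the main calls, 3433 passed the FDR alone, 166 were called in neither 2-against-2 test, the lists held 105 calls and the interaction called 0 genes. Across the 6 pairs of lines, libraries with equal replicate numbers varied together with correlations from -0.0455 to 0.302 (mean 0.142), above 0.1 in 4 pairs. The correlations do not settle whether equal numbers mark a shared harvest day, which was not tested. The main fit held no term for the replicate number, and 2653 genes passed the FDR alone in it, against 3433 with the block.

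Of the values of 142 named genes under the alternatives, 2082 kept their direction and side of the threshold, 111, of 30 genes, kept their direction and missed it, 79 were not tested because a filter removed the gene, and 0 changed direction. At 8038565 to 16003519 counts a library, genes under about 1 CPM rest on few reads.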

Other observations

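Genes outside the lists also changed, and these were chosen after their values were seen. Spp1, which encodes the secreted phosphoprotein osteopontin, was at 0.381 to 6.80 CPM without T-bet and 196 to 814 CPM with it (log2 FC 6.66 ± 0.51). Il23a, the subunit specific to IL-23, had a log2 FC of 3.73 ± 0.43. Dusp2, a phosphatase that acts on MAP kinases, was among the more highly expressed genes that rose, at 208 to 375 CPM without T-bet and 893 to 1264 CPM with it (2.07 ± 0.15). Of the genes of gap junction proteins, Gja5 was higher and Gja1 (-2.13 ± 0.21) lower with T-bet. Of genes of other classes, 33 long intergenic noncoding RNAs were called, 17 that rose and 16 that fell, out of 502 tested (6.57%), and 14 of 1144 processed pseudogenes (1.22%).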
